A study of Bos taurus with 12 samples.

Results

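The wide methylated regions described here are stretches of the Angus cattle genome where peaks of captured, methylated DNA joined into a single block of at least 1000 bp. They were selected on measured width: the peaks of the 12 single-library lists on chromosomes 1 to 29 were joined wherever they shared 1 bp, and 671 of the 72997 joined regions (0.919%) reached 1000 bp. Their summed length was 0.867 Mb of bosTau8, the cattle genome build of the lists. The rule also left out 6 dense clusters of peaks, on chromosomes 1, 3, 8, 14 and 27, with 1462 joined regions of which 29 were wide.

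The DNA came from longissimus muscle of contemporaneous Angus steers, 2 with tender and 2 with tough beef, chosen at the extremes of shear force, and no animal was treated. Each capture with a methyl-CpG binding protein (MBD) was eluted in serial salt steps, and the 3 eluates are labelled by methylation level as high, medium or low. The 6 conditions are named HTE, MTE and LTE for the high, medium and low fractions of tender beef and HTO, MTO and LTO for those of tough beef, each with replicates 1 and 2. With 2 animals per beef, all drawn from the ends of a tenderness range, the groups are a small model of tenderness, and differences between animals and between beefs cannot be told apart. The sources on the protocol name opposite salt steps for the high fraction, so the fractions are called here only by their labelled methylation level. Peak positions carry no marker of cell type, so the labelled tissue could not be checked.

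In mammals most DNA methylation sits on the cytosine of CpG dinucleotides. The binding domain used in the capture holds double-stranded DNA more tightly the more methylated CpGs a fragment carries, and stepwise salt elution therefore sorts fragments by how densely they are methylated. Blocks that stay methylated over a long stretch can be CpG-rich elements such as methylated islands, exons and repeats. Which of these elements the wide regions hold was not analysed here, because neither the sequence nor the genes of bosTau8 were used. The peaks were called without an input library, so dense methylation and many genomic copies of a stretch cannot be told apart.

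The libraries held 3677473 to 7981292 tags after duplicate removal and 9944 to 36663 peaks. The high libraries were the least deep, and the low libraries of tough beef held 28671 and 29418 peaks against 9944 and 17487 for tender beef. The text uses 3 values of a peak. The pileup is the number of extended tags over the summit, fold enrichment is the ratio of that pileup to the local background, and the covered length is the number of bases of a region under peaks of a library. The peak caller kept 1 tag per position and extended each tag to a fragment length of 146 to 203 bp, so that no base could be covered by more tags than 2 times this length. The highest pileup of a library reached 94.2 to 100% of this ceiling, from 311 of 330 tags in LTO_1 to 324 of 324 in MTO_1.

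The wide regions had a median width of 1194 bp, with quartiles at 1090.5 and 1361 bp. Of the 671, 112 were 1500 bp or wider, 32 were 2000 bp or wider, and the widest spanned 4680 bp. In 504 (75.1%) a single peak of a single library was already 1000 bp long, and in the other 167 the width was reached only by joining shorter peaks of several libraries. Just inside the minimum lay chr12:89181854-89182853 and chr14:1361222-1362221, each 1000 bp wide. Just outside lay chr10:49984404-49985402 and chr5:21424389-21425387, each 999 bp wide. The region on chromosome 12 joined peaks of 8 libraries that were at most 849 bp long, while the one on chromosome 10 was covered by a single peak of 895 to 995 bp in each of the 12 libraries.

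A peak in all 12 libraries was found in 497 of the 671 wide regions (74.1%), against 3.68% of all joined regions and 3.03% of the 72326 narrower ones. The fewest libraries in any wide region was 5. Joining over more libraries can only widen a region, so this share is partly set by the rule and is given without a test. Wide and narrower regions also differed in pileup, which is given below. Read the other way, 18.5% of the regions found in all 12 libraries were wide, against 0.0576% of those found in 5.

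The wide regions were divided by their pileup. With the highest pileup of a region taken as a percent of that library's ceiling, the regions fell into a large set above 50% and a smaller set below 25%. These limits were set after the values were seen. In what follows, 433 regions above 50% (64.5%) are called deep, 195 below 25% (29.1%) shallow and the remaining 43 intermediate. Of the intermediate regions, 41 had a peak in all 12 libraries and 32 held a single peak of at least 1000 bp. The narrower regions were distributed otherwise: 93.7% lay below 25% of the ceiling and 3468 (4.79%) above 50%. The share of wide regions among all joined regions was 0.195% where the highest pileup was at most 10% of the ceiling, 6.89% between 10 and 25%, 3.86% between 25 and 50%, 8.93% between 50 and 75% and 18.6% above 75%.

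**Figure D1:**
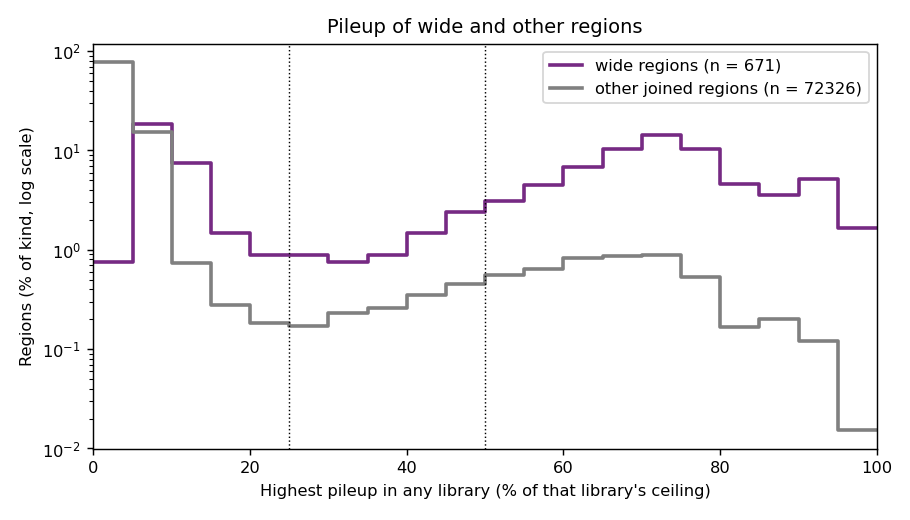
Share of the 671 wide regions and of the 72326 narrower joined regions (percent of each kind, log axis) by the highest pileup of the region in any library, as a percent of the ceiling of that library. Dotted lines mark 25 and 50%, and the wide regions form a set below 25% (195 regions) and a larger one above 50% (433 regions).

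Deep and shallow regions differed in how the width arose. A deep region had a median highest pileup of 72.5% of the ceiling, a median width of 1217 bp and, in 402 of 433 (92.8%), a single peak of at least 1000 bp. A shallow region had a median highest pileup of 8.67% of the ceiling, a median width of 1139 bp and such a peak in 70 of 195 (35.9%). Fold enrichment did not follow pileup: the median of the highest fold enrichment was 8.33 in deep and 10.3 in shallow regions. A peak in all 12 libraries was found in 431 of 433 deep regions and in 25 of 195 shallow ones. Of the 112 regions of 1500 bp or more, 98 were deep, 11 shallow and 3 intermediate.

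The 8 widest regions were all deep and had peaks in all 12 libraries. The widest of all was chr11:13094983-13099662, at 4680 bp. Its covered length was 4067 and 4416 bp in HTE_1 and HTE_2, 4410 and 4125 bp for MTE, and 3715 and 3843 bp for LTE. In tough beef it was 4591 and 4493 bp for HTO, 4532 and 4519 bp for MTO, and 4514 and 4308 bp for LTO. The cover was broken into 2 to 6 peaks in each library, and the LTE libraries left the most of the block uncovered. Its fold enrichment was 3.11, 3.04, 2.95 and 2.86 in the high, 3.23, 3.24, 2.99 and 3.01 in the medium, and 3.38, 3.38, 3.04 and 3.08 in the low libraries, each time in the order tender 1, tender 2, tough 1, tough 2. At each level both tender libraries lay above both tough ones in fold enrichment. At the medium level 27.7% of all joined regions with a peak in all 4 libraries had this order. Pileup had the reverse order at the medium level, with 250 and 239 tags in MTE and 284 and 296 in MTO. It was also reversed at the low level, with 185 and 217 in LTE and 251 and 219 in LTO. At the high level it overlapped, with 241 and 270 in HTE and 279 and 266 in HTO.

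The second widest, chr3:95023290-95026102 (2813 bp), was covered over 2611 to 2807 bp in every library, in 8 of the 12 by a peak without a break, and its fold enrichment was 5.07 to 6.43. The 2 widest regions reached 87.7 and 88.0% of the ceiling. The next 6 in width included a pair on chromosome 9, chr9:85210980-85213484 (2505 bp) and chr9:85011919-85014344 (2426 bp), at a fold enrichment of 5.44 to 6.55 and of 5.61 to 8.60 over the 12 libraries. The others were chr2:8751392-8753874 (2483 bp, 6.60 to 8.25), chr27:1368551-1370950 (2400 bp, 4.70 to 5.93), chr4:120643418-120645768 (2351 bp, 5.61 to 10.02) and chr7:50890930-50893267 (2338 bp, 6.39 to 8.20). In the region on chromosome 4 the fold enrichment was highest in the low fraction of tender beef. It was 10.02 and 9.40 in LTE_1 and LTE_2, against 7.54 and 7.54 in LTO_1 and LTO_2. The high libraries lay at 7.04 to 7.78 and the medium ones at 5.61 to 6.84. The pileup of LTE_1 and LTE_2 was nevertheless the lowest there, at 201 and 211 tags against 231 to 316 in the other libraries.

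**Figure D2:**
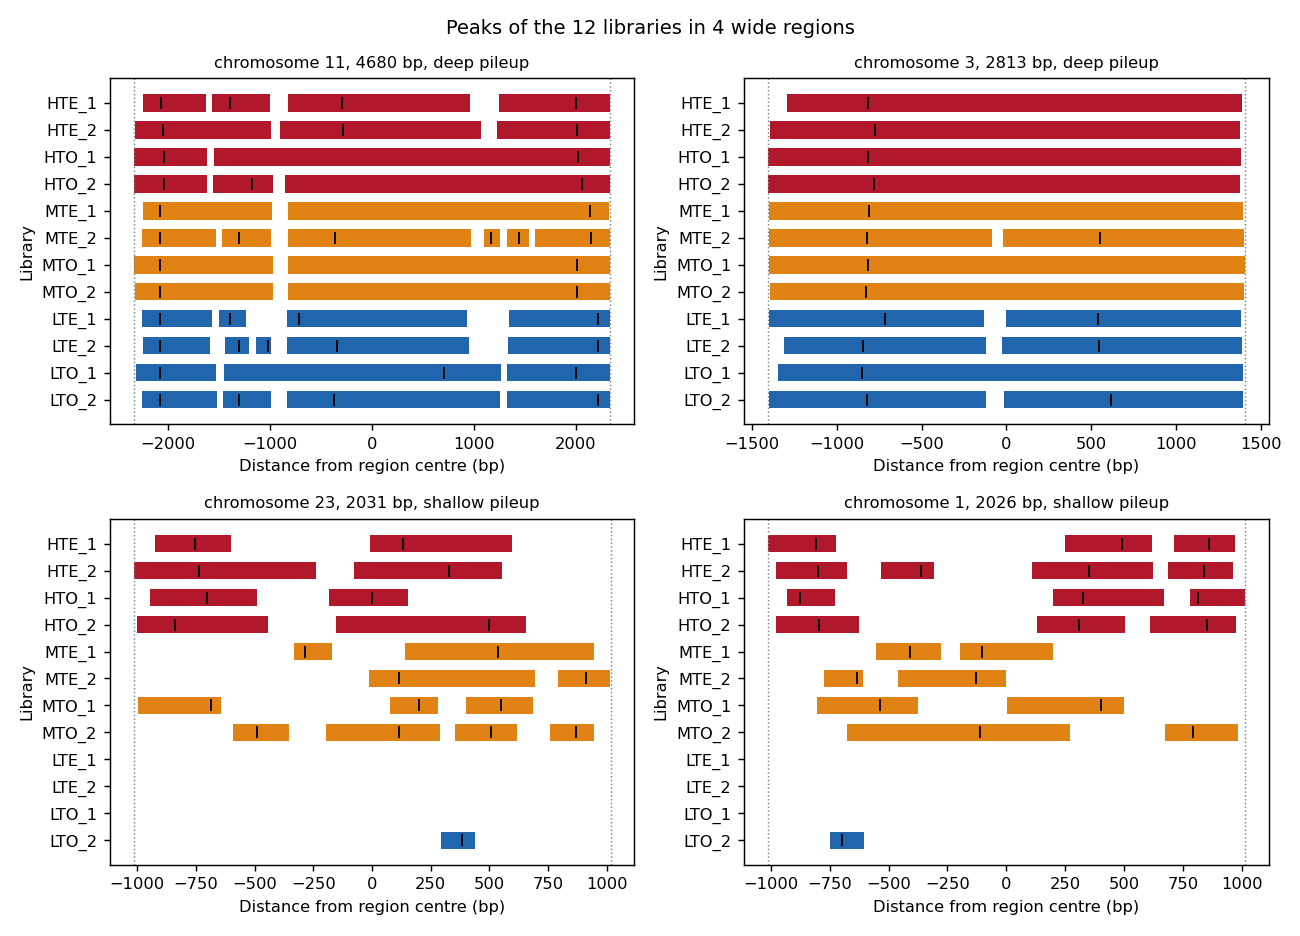
Peaks of the 12 libraries (rows, coloured by methylation level) in the 2 widest deep and the 2 widest shallow regions, by distance from the centre of the region in bp, with black ticks at peak summits and dotted lines at the ends of the region. The deep regions hold long peaks in all 12 rows, with gaps in the widest, while the shallow ones are a mosaic of short peaks, with a peak of LTO_2 as the only one of the low libraries.

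The highest fold enrichment lay in narrower members. The 4 regions with the highest lowest fold enrichment over the 12 libraries were only 1025 to 1062 bp wide. Their pileup was not the highest: it was 94 to 206 tags in chr27:43451745-43452776, against 185 to 296 in the widest region. The local background was taken within 10000 bp in the same library, and the part of region width in fold enrichment was not tested. In chr27:43451745-43452776 fold enrichment was 18.6 and 21.9 in HTE_1 and HTE_2, 21.9 and 21.8 for HTO, 22.7 and 22.2 for LTE, 22.2 and 22.7 for LTO, 24.7 and 26.3 for MTE, and 29.1 and 29.0 for MTO. The medium libraries were the highest there, and the low ones lay above the high ones. The same order was found in chr28:29787957-29789007, with 17.7 to 20.8 for high, 25.6 to 28.8 for medium and 21.2 to 21.6 for low libraries. In chr1:112882775-112883799 the values were 17.4 to 19.7, 21.4 to 27.6 and 18.7 to 20.5, and the high and low libraries overlapped. In chr16:10675056-10676117 the low libraries were the lowest, at 16.6 to 19.9, and the high (22.5 to 26.3) and medium ones (23.2 to 26.3) overlapped.

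The widest shallow regions, named after their values were seen, looked different. In chr23:40588547-40590577 (2031 bp) fold enrichment was 9.17 and 7.17 in HTE_1 and HTE_2, 5.37 and 6.39 for MTE_1 and MTE_2, 6.44 and 6.04 for HTO_1 and HTO_2, and 6.34 and 6.16 for MTO_1 and MTO_2. Of the low libraries only LTO_2 had a peak, at 5.65 and over 146 bp, and the covered length of the high and medium ones was 789 to 1411 bp. No library came near to filling the region, and its peaks, of at most 808 bp, were offset from each other. The same pattern recurred in chr1:143740194-143742219 and chr24:2858505-2860530, both 2026 bp wide, where LTO_2 was again the only low library, over 146 and 320 bp. In chr16:55992318-55994101 (1784 bp) LTO_1 and LTO_2 had a peak, over 165 and 175 bp, against 852 to 1492 bp in the high and medium libraries.

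Both deep regions that missed some libraries had a low fold enrichment. chr4:57414842-57416097 had no peak in the 4 high libraries and a fold enrichment of 1.91 to 2.56 in the other 8. chr5:54081457-54082545 had none in LTE_1 and LTE_2 and 2.17 to 2.77 elsewhere. Pileups there were nevertheless 98 to 196 tags, so the local background was high as well.

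The 3 methylation levels covered the wide regions to different degrees. Of all 671, the share with a peak was 96.7 and 97.3% in HTE_1 and HTE_2, 99.3 and 99.0% for MTE, and 78.8 and 81.5% for LTE. In tough beef it was 94.6 and 97.5% for HTO, 99.1 and 99.0% for MTO, and 88.4 and 90.8% for LTO. The medium libraries were the highest, the low ones the lowest, and the 3 levels did not overlap. The narrower regions had another order: 11.7 to 15.2% had a peak in a high library, 29.6 to 45.2% in a medium and 10.8 to 36.0% in a low library.

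Since a library helps to choose the regions it is measured on, levels were compared on regions chosen without its animals: 515 regions of 1000 bp or more joined from the 6 tender libraries were measured in the tough libraries, and 569 joined from the tough libraries in the tender ones. The share with a peak was 99.4% ± 0.28 (SD, n = 4) in the medium, 98.1% ± 0.73 in the high and 88.8% ± 3.88 in the low libraries. The medium level exceeded the high one by 1.31 percentage points and the low one by 10.6, and the low level was below the high one by a difference of -9.29. Each of these differences had p = 0.0286 in a two-sided exact permutation test of 4 against 4 libraries, which is the smallest this design allows, and the value adjusted over the 3 comparisons by Benjamini-Hochberg was 0.0286 as well. The 3 eluates of a capture come from the same DNA, so the 12 libraries are not independent, and when same-numbered eluates of a beef were paired, each of the 3 differences had an exact sign-flip p of 0.125, the smallest that 4 pairs allow.

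The levels compared had also helped to choose the regions in the other beef, so these p-values are not free of the selection. The comparison was therefore repeated, after the data were seen, on regions chosen in the other beef at the remaining level alone. On regions of the low libraries the share with a peak was 99.9% ± 0.13 in the medium and 98.9% ± 0.44 in the high libraries (SD, n = 4), a difference of 1.02 percentage points. On regions of the high libraries it was 99.8% ± 0.14 in the medium and 94.0% ± 1.01 in the low libraries, a difference of 5.82. On regions of the medium libraries it was 93.7% ± 3.35 in the low and 98.8% ± 0.51 in the high libraries, a difference of -5.07. Each had an exact permutation p of 0.0286, also after adjustment over the 3, so each difference kept its direction while both differences from the low level were smaller.

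Several settings moved the differences. At a width minimum of 1500 bp they were 1.11 percentage points for medium minus high and 3.30 for medium minus low (adjusted exact p = 0.214 for both) and -2.20 for low minus high (adjusted exact p = 0.286). When the same number of peaks, 9555, was taken from each library, the difference between medium and high turned to -4.59 percentage points (adjusted exact p = 0.0429) and that between medium and low fell to 3.65 (adjusted exact p = 0.0571), and with peaks of at least 3-fold enrichment alone the medium level exceeded the high one by 0.0994 (adjusted exact p = 0.914). Leaving out a library brought the adjusted exact p to 0.0571 for medium minus high without MTE_2 or MTO_2, for medium minus low without MTE_1 or MTE_2, and for low minus high without HTE_1, HTE_2, HTO_1 or MTE_2, with differences of 1.00 and 1.16, of 9.70 and 9.95, and of -8.72, -8.66, -9.25 and -8.94.

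The shares of the deep and shallow regions were set side by side without a test. Deep regions had a peak in 99.8 to 100% of cases in every library. For shallow regions the share was 89.2 and 91.3% in HTE_1 and HTE_2, 97.4 and 96.4% for MTE, and 27.7 and 36.9% for LTE. In tough beef it was 82.6 and 92.8% for HTO, 96.9 and 96.4% for MTO, and 60.0 and 68.7% for LTO. With regions chosen in the other beef, the shallow ones had a peak in 96.9% ± 1.41 of cases in medium, 91.8% ± 3.70 in high and 46.3% ± 18.96 in low libraries (SD, n = 4). The differences were 5.15 percentage points for medium minus high, 50.6 for medium minus low and -45.4 for low minus high. They were added after the data were seen and carry no test, since the medium level supplied most of the outer bases of these regions. Of the 195 shallow regions, 46 had no peak in any low library, 4 none in any high and 0 none in any medium library, and 37 had a peak in all 4 high and all 4 medium libraries and in none of the low ones. No wide region had peaks at a single level only.

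**Figure D3:**
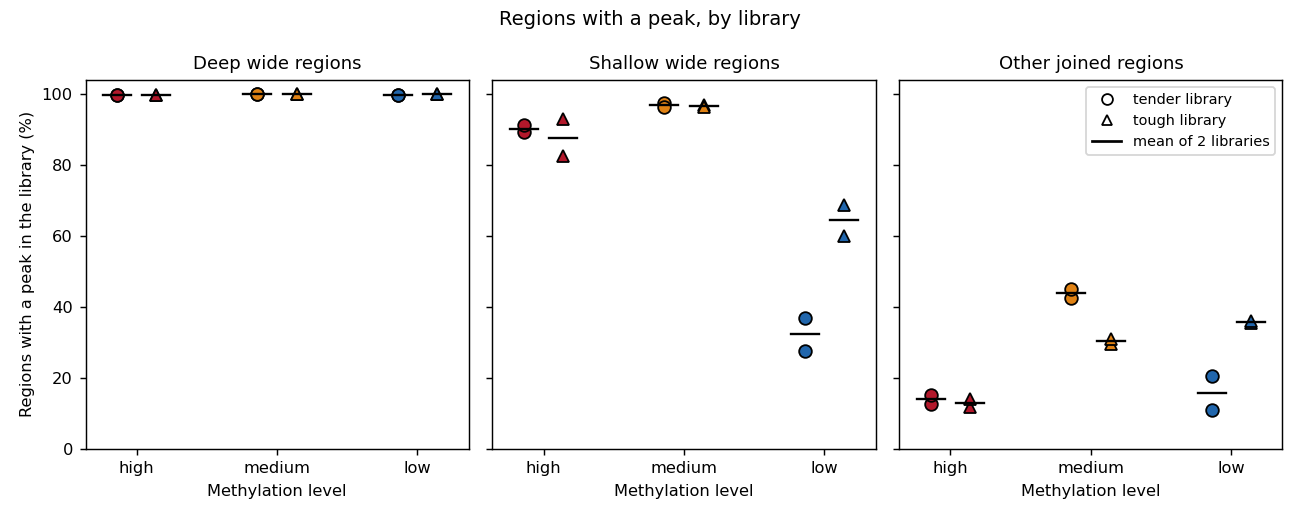
Share of regions with a peak in each library (percent), by methylation level, for the deep, the shallow and the narrower joined regions, with circles for tender and triangles for tough libraries and bars at the mean of 2 libraries. Deep regions lie at 99.8 to 100% throughout, and shallow ones fall to 27.7 and 36.9% in LTE and 60.0 and 68.7% in LTO.

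The strength of the peaks followed the level too. Over shallow regions with a peak, the median fold enrichment was 8.71 ± 0.35 for high, 7.46 ± 0.28 for medium and 6.002 ± 0.15 for low libraries (SD, n = 4), so the high level was the strongest although the medium level covered more regions. The median covered length was 651 ± 77.9 bp for high, 787 ± 32.7 bp for medium and 344 ± 68.2 bp for low libraries. In deep regions the levels were close together in covered length, at 1141 ± 11.2, 1136 ± 16.9 and 1124 ± 30.9 bp. Their fold enrichment, at 7.85 ± 0.23, 7.203 ± 0.11 and 6.85 ± 0.19, had the same order as in shallow regions. The levels did not overlap in it, at 7.61 to 8.16 in high, 7.05 to 7.31 in medium and 6.58 to 7.005 in low libraries. The pileup of deep regions was lower at the low level, at 125 ± 29.6 tags against 203 ± 33.5 at the medium and 218 ± 10.5 at the high level. As a percent of each library's ceiling, the median was 29.7 to 48.8% in low libraries. It was 55.1 to 71.6% in medium and 50.7 to 59.2% in high libraries, which overlapped. These values carry no test, since the same peaks chose the regions.

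The levels also differed in where they lay within a region. Each region was divided into 10 equal bins. In shallow regions peaks of a high library covered on average 22.8 and 20.7% of the bases in the 2 outermost bins and up to 65.5% in the middle, whereas medium peaks covered 41.1 and 38.3% at the ends and 64.4 to 70.2% elsewhere. Low peaks covered 12.9 to 21.1% throughout. The ends of shallow regions belonged mostly to the medium level, which alone reached the outermost base at 56.4% of the 390 ends. The share was 20% for high and 22.6% for low. Medium libraries also held the most peaks in shallow regions, 1263 against 898 for high and 523 for low ones. The part of this number in the ends was not tested. In deep regions the high level set 50.5% of the 866 ends alone, the medium level 17.7% and the low level 28.1%. High libraries had the longest extended tags, 179 to 203 bp against 146 to 175 bp at the other levels, and the part of this length in the ends was not tested. In deep regions all levels covered 90.7 to 97.7% of the inner bins.

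**Figure D4:**
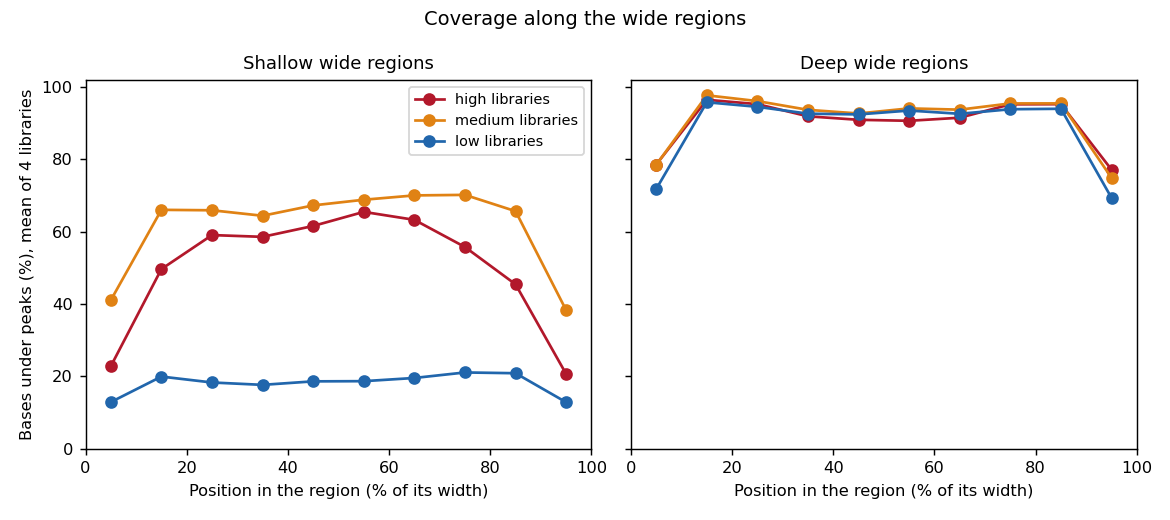
Bases under peaks (percent, mean of the 4 libraries of a level) in 10 equal bins along the shallow and the deep wide regions. In shallow regions the medium curve stays broad while the high curve falls from 65.5% in the middle to 20.7% at an end, and in deep regions the 3 curves nearly coincide.

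Tender and tough beef were then compared within each level. At the high level the share of wide regions with a peak was 97.0% ± 0.42 for tender and 96.1% ± 2.00 for tough libraries (SD, n = 2), and at the medium level it was 99.1% ± 0.21 and 99.0% ± 0.11. The libraries of both beefs overlapped at either level. At the low level it was 80.2% ± 1.90 in tender and 89.6% ± 1.69 in tough beef, with both tough libraries above both tender ones. This difference of 9.39 percentage points had an exact permutation p of 0.33, the smallest that 2 against 2 libraries can give. Such a test cannot decide, and peaks of both beefs had also helped to choose the regions. In shallow regions the low level reached 32.3% ± 6.53 in tender and 64.4% ± 6.16 in tough beef, a difference of 32.1 percentage points. The shallow class was set after the values were seen, so this difference is given without a test. The order was not particular to wide regions. Of the narrower ones, 10.8 and 20.5% had a peak in LTE_1 and LTE_2 and 35.5 and 36.0% in LTO_1 and LTO_2. The tough low libraries also held more peaks in all, and with 9555 peaks from each library the difference over all wide regions was -0.261 percentage points, with an exact permutation p of 1. Over the shallow regions found with equal numbers of peaks it was -1.46, a setting added after the data were seen. At the medium level the difference went from -0.0745 to -2.52 with equal numbers of peaks and to -2.96 with peaks up to 500 bp apart joined (exact permutation p = 0.33 for both).

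Among shallow regions with a peak in all 4 low libraries (45), covered length had medians of 341 and 376 bp in LTE_1 and LTE_2 and of 631 and 724 bp in LTO_1 and LTO_2. Both tough libraries exceeded both tender ones in 28 of the 45 (62.2%), and the reverse held in 1 (2.22%). Of all joined regions with a peak in all 4 low libraries, 38.4 and 4.6% had these orders. Of the 432 deep ones, 150 (34.7%) and 8 (1.85%) had them. In fold enrichment at the medium level both tender libraries exceeded both tough ones in 63 of 177 shallow regions (35.6%), and the reverse held in 22 (12.4%). All joined regions with a peak in all 4 medium libraries leaned the same way, at 27.7 and 16.9%. In deep regions it was 146 of 433 (33.7%) and the reverse 86 (19.9%). The medians of deep regions overlapped, at 7.22 and 7.31 in MTE and 7.23 and 7.05 in MTO. These counts are of regions, which are not replicates of a beef. Covered length of deep regions at the medium level was greater in both tough libraries in 238 of 433 (55.0%) and in both tender ones in 41 (9.47%), against 24.8 and 18.2%, with medians of 1134 and 1115 bp in MTE and 1139 and 1156 bp in MTO. The MTE libraries had shorter extended tags (157 and 146 bp) than the MTO ones (162 and 175 bp), and the part of this length was not tested.

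A region was called specific to a beef at a level when both of its libraries had a peak and neither library of the other beef did. At the high level 7 of 666 wide regions with a peak (1.05%) were tender-specific and 4 (0.601%) tough-specific, against 3.68 and 1.72% of all joined regions with a peak at that level. At the medium level 0 of 671 were tender-specific and 3 (0.447%) tough-specific, against 8.97 and 1.77%. At the low level 1 of 625 (0.16%) was tender-specific and 41 (6.56%) tough-specific, against 0.483 and 9.55%. A peak in all 4 libraries of a level was found in 93.8, 97.3 and 83.04% of them at the high, medium and low level, against 40.9, 26.2 and 9.31% of all joined regions. Joining over more libraries widens a region, so low shares of specific regions follow in part from the rule and nothing is read from them. Among the shallow regions with a peak at the low level, 40 of 149 (26.8%) were tough-specific and 1 (0.671%) tender-specific. Over all joined regions these shares were 9.55 and 0.483%. Among the deep regions, 1 of 433 (0.231%) was tough-specific and 0 were tender-specific. Nothing is read from the shares by pileup class either. Leaving out HTO_2 raised the count at the high level from 11 to 25, and leaving out HTO_1 raised it to 17. At the medium level the 3 regions became 7 without MTO_1, 6 without MTO_2 and 5 without MTE_1.

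Most of the 41 regions specific to tough beef at the low level had peaks in both beefs at the other levels. Of these, 38 had a peak in all 4 medium and 33 in all 4 high libraries. Their peaks at the low level had a median fold enrichment of 5.68 in LTO_1 and 5.61 in LTO_2, a median pileup of 10 tags in both and a median covered length of 328 and 379 bp. The 7 tender-specific regions at the high level had a median fold enrichment of 5.89 and 5.76 in HTE_1 and HTE_2. With −log10 q of at least 5 required of a peak, 21 regions in place of 42 were specific to a beef at the low level, and with 9555 peaks from each library 5 were.

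Peaks specific to a beef at all 3 levels were rare. Of all 72997 joined regions, 3 (0.00411%) had a peak in all 6 tough and in none of the tender libraries, 2 of them wide, and 0 (0%) had the reverse. The first wide one was chr6:108235675-108236758 (1084 bp), with a fold enrichment of 6.79 and 7.70 in HTO_1 and HTO_2, 7.33 and 7.60 in MTO and 7.10 and 8.70 in LTO. Its covered length was 873 to 1057 bp and its pileup 16 to 50 tags, so that each tough library filled most of the region. The other was chr26:45750580-45751751 (1172 bp), with 5.52 and 6.05 in HTO, 6.02 and 6.04 in MTO and 8.23 and 7.55 in LTO. There the LTO libraries were the strongest and covered 731 and 813 bp, against 253 and 299 bp in HTO. In the lists called on merged replicates, a merged HTO, MTO and LTO peak lay over both regions and no merged peak of tender beef did, while the narrower region, chr2:136732318-136732973 (656 bp), had a merged MTE peak at a fold enrichment of 5.83. The copy number of these stretches in the 4 animals was not tested.

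Other regions were specific to a beef at a single level while both beefs had peaks at the others. chr24:62486270-62487518 (1249 bp) had the highest lower fold enrichment of the tender-specific regions at the high level, at 9.78 and 8.08 in HTE_1 and HTE_2. It had no peak in HTO, but the other tender libraries had 13.7 and 13.3 (MTE) and 7.49 and 9.002 (LTE), and the tough ones 7.54 and 8.28 (MTO) and 6.27 and 8.42 (LTO). Here the MTE libraries covered 1205 and 1225 bp, against 798 and 956 bp in MTO, and their pileup was 52 and 52 tags against 14 and 18. At the low level the 1 tender-specific region was chr21:22712499-22713556 (1058 bp), with a fold enrichment of 5.73 and 4.90 in LTE and peaks in all 8 high and medium libraries. The remaining tough-specific region at the medium level was chr6:118159575-118160857 (1283 bp), with peaks in 6 libraries. The fewest libraries, 5, were found in chr23:27134245-27135313, with peaks in both HTE and both MTE libraries and MTO_2, and in chr24:61790247-61791265, with peaks in the 4 high libraries and MTE_1. Both were named after their values were seen.

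Wide regions were unevenly placed. Chromosome 8 held 56 among its 2765 joined regions (2.03%) and chromosome 9 held 37 (1.42%), the highest shares, while chromosome 25 held 13 (0.523%) and chromosome 29 held 12 (0.562%), the lowest. Over all autosomes the share was 0.919%. The share also depends on the number of joined regions, which was highest on chromosome 25, at 57.99 per Mb. Counted per Mb, chromosome 8 again held the most wide regions, at 0.494, but chromosome 10 held the fewest, at 0.144. Chromosomes 25 and 29 held 0.303 and 0.233 per Mb. Of the 56 on chromosome 8, 42 were deep and 13 shallow. Chromosome 18 had 15 shallow and 8 deep regions, and chromosome 24 had 12 of each. These shares are a description and carry no test.

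**Figure D5:**
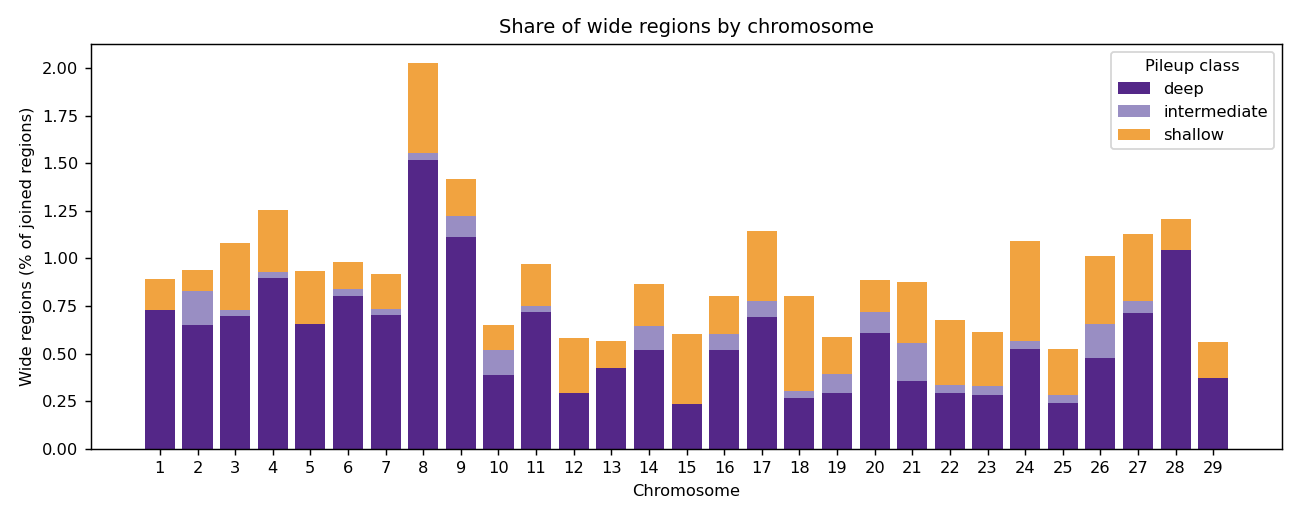
Wide regions as a percent of the joined regions of each autosome, stacked by pileup class (deep, intermediate, shallow). Chromosomes 8 (2.03%) and 9 (1.42%) stand highest and chromosomes 25 (0.523%) and 29 (0.562%) lowest, and the shallow part exceeds the deep one on chromosomes 15, 18 and 22.

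Deep and shallow regions lay in different parts of the chromosomes. Of the shallow regions, 70 (35.9%) lay in the last 5 Mb before the last peak of their chromosome, against 28 deep ones (6.47%) and 21.0% of the narrower regions. In the first 2 Mb the shares were 3.08, 5.31 and 3.12%. The median position was 86.1% of the way along the chromosome for shallow, 50.02% for deep and 66.0% for narrower regions. Deep regions also lay close to other wide regions: 96 (22.2%) had one within 10 kb, as against 0 of the 195 shallow ones. A count of 0 allows a share of up to 1.54% by counting alone. The smallest gap between a deep region and the nearest wide one was 83 bp, and only peaks sharing 1 bp were joined. Whether such neighbours are parts of a single block was not tested. Another joined region of any width lay within 1 kb of 57.5% of deep, 20.5% of shallow and 24.8% of narrower regions.

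The wide regions lay in 476 different megabases, of which 331 held a single wide region, and the highest number was 5. It was reached in 11 to 12 Mb of chromosome 28, 23 to 24 Mb of chromosome 6 and 25 to 26 Mb of chromosome 8, with 5, 4 and 4 deep regions. All 5 on chromosome 28 had peaks in all 12 libraries, and chr28:11162930-11163958 and chr28:11164150-11165386 lay side by side. The regions of these megabases were named after their values were seen. Among megabases with 4 or more, the most compact group was on chromosome 9, where 4 regions of 1106 to 1470 bp lay within 59.7 kb (chr9:88587323-88646999). The first base of chromosome 17 belonged to a deep region as well, chr17:1-1267, with peaks in all 12 libraries and a highest fold enrichment of 12.3.

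A further 6 lists held peaks that the authors had called after pooling both replicates of a condition, with more tags per list. In these lists a single peak of at least 1000 bp lay in 66.5, 68.1 and 46.8% of the wide regions for HTE, MTE and LTE and in 66.5, 71.2 and 59.9% for HTO, MTO and LTO. In the list of at least 1 of the 2 replicates, the corresponding shares were 53.2, 47.1 and 39.5% and 51.9, 53.7 and 54.1%. Among shallow regions the gap between replicate and merged lists was widest at the medium level, with 13.8 and 50.8% in MTE and 11.8 and 47.2% in MTO, and narrowest in LTE, with 0 and 3.08%. In deep regions the shares were 57.7 and 66.5% in LTE, 77.1 and 79.4% in LTO and 71.4 and 85.7% in HTE. The merged lists were called on the same reads, by another release of the caller and with another genome size, so they are no independent evidence of width.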

How the data were processed

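Longissimus DNA of 2 tender and 2 tough Angus steers was captured by MBD-seq, and 12 libraries (3 methylation levels, 2 beefs, 2 replicates) were sequenced by the authors as 50 bp reads. The reads were cleaned with SOAPnuke, aligned to bosTau8 with BWA, version 0.7.7 in the submitters' processing notes, and uniquely mapped reads were kept. The authors called peaks with MACS2 (2.1.1.20160309 for single libraries) without input, at a q-value of 0.01 and with 1 tag per position. Per the file headers, the deposited pileup is the signal of extended tags at the summit, not divided by library size. The deposited fold enrichment is the ratio to the local background within 10000 bp of the same library. The −log10 of each p-value and q-value was likewise computed by the authors' caller and was used only to filter and rank peaks.

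Regions were joined in pandas 2.3.3 and numpy 2.4.6 under Python 3.11.15, intervals were taken from scipy 1.17.1, and the joining was checked against bedtools 2.31.1, which gave the same 74459 regions with the 6 clusters kept. A region counted as present in a library with 1 peak sharing 1 bp. The joining and presence code was tested on simulated data. Two-sided exact permutation tests over libraries compared the levels, with Benjamini-Hochberg adjustment over 3 comparisons and a threshold of 0.05, and beefs within a level by exact tests that cannot go below 0.33. Depth was 3677473 to 7981292 tags per library. A share of 671 regions in a single library carries a counting error only, by Wilson 95% interval from 92.7 to 96.1% for the 94.6% of HTO_1.

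The wide regions and the rules for naming them were chosen with earlier results of these data known. Named regions are the 8 widest, the 4 with the highest lowest fold enrichment over 12 libraries, the strongest group-specific region per level and beef, those next to the width minimum and 2 chromosomes at each end. Regions outside this rule are marked as named after their values were seen. Alternatives were a width minimum of 1500 bp, a minimum −log10 q of 5, a minimum fold enrichment of 3, joining over gaps of up to 500 bp, equal numbers of peaks, clusters kept, merged lists, regions chosen in all libraries, each library left out and a replicate block. A restriction to regions under 25% of the pileup ceiling, also with equal numbers of peaks, and regions chosen in the level not compared were added after the data were seen. Genes, CpG content and sequences were not analysed here, and the X chromosome enters only the closing section.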

Additional observations from a re-analysis of the deposited data

Results flagged for a closer look

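In shallow wide regions with a peak, the median fold enrichment at the low level was 6.23 in LTO_2, against 5.92 to 5.94 in LTE_1, LTE_2 and LTO_1. It was marked because it lay far from the other libraries of its level by Dixon's criterion. In all, 33 groups of 4 libraries were examined, and chance marks about 1 in 20 such groups.

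On chromosome X, which the comparisons leave out, 35 of 1839 joined regions were 1000 bp or wider, up to 2374 bp. They were marked as signal in data that no comparison used. On the mitochondrial chromosome 0 of 7 joined regions reached this width, and the widest spanned 792 bp.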

How the results depend on the processing

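The number of wide regions was 112 with a width minimum of 1500 bp and 2029 with peaks up to 500 bp apart joined, and between 575 and 926 under the other planned settings, with 633 to 666 when 1 library was left out. Medium minus high was 1.11 percentage points at 1500 bp (adjusted exact p = 0.214), 0.0994 with at least 3-fold enrichment and -4.59 with equal numbers of peaks. Medium minus low was 3.30 at 1500 bp (adjusted exact p = 0.214) and 3.65 with equal numbers, and low minus high was -2.20 at 1500 bp (adjusted exact p = 0.286). With 1 library left out, these differences ranged from 0.953 to 1.58, from 9.14 to 11.6 and from -10.3 to -7.92. Under a replicate block, in which libraries were paired by beef and number, they were 1.31, 10.6 and -9.29, each with an exact sign-flip p of 0.125, the smallest that 4 pairs allow, so that 0 of 3 calls could pass. Same-numbered libraries of a beef correlated at -0.106 to 0.138 in their deviations, so the numbers are not shown to pair the eluates of an animal. Tough minus tender at the high level was 0.783 with equal numbers of peaks, 5.34 with equal numbers in shallow regions and -2.49 to 0.381 with 1 library left out, positive without HTO_1. At the medium level it was -2.52 with equal numbers, -12.6 with equal numbers in shallow regions, -2.96 with joined gaps and, with 1 library left out, -0.304 to 0.154, positive without HTE_2, MTO_2 (0.0775) or LTE_2 (0.0759). At the low level it was -0.261 with equal numbers, -1.46 with equal numbers in shallow regions and 8.04 to 10.5 with 1 library left out. Group-specific regions at the high, medium and low level numbered 1, 0 and 3 at 1500 bp, 49, 34 and 163 with joined gaps, and 4, 13 and 5 with equal numbers. They numbered 11 at the medium level with at least 3-fold enrichment and 21 at the low level with −log10 q of at least 5. With 1 library left out they ranged from 8 to 25, from 3 to 7 and from 38 to 57. The causes of these changes were not tested. The low-level peaks of shallow regions held a median of 11 to 12 tags.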
